A study of Rattus norvegicus with 3 samples.

Results

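The autophagy machinery was represented by 42 genes that build, fill and close the autophagosome, and 37 of them had a row in the deposited table of 12758 gene symbols. They were looked up by symbol from a list of the pathway that was drawn up with earlier results of these data known. ATG13, BECN1, ATG4A, ATG5 and EPG5 had no row under their own symbols, and nothing is given for them. RNA came from the supernatant left after thoracic spinal cord of female Sprague Dawley rats, 3 months old, was digested by a cold-active protease and the cells were spun down. No-SCI animals had a laminectomy at T9 alone, SCI animals had the laminectomy followed by a contusion of 250 kdyne, and tissue just rostral to that site was taken 24 h later. According to the labels there were 2 libraries without injury and 1 with it, although the methods state 2 animals for either condition. For each gene the table holds 1 FPKM value per group, estimated by the authors. FPKM is a fragment count scaled for transcript length and sequencing depth, here with upper quartile normalization. Every FPKM below is that group value. There are no values per animal and no read counts per gene, so no SD, n or test can stand beside a difference. The number of reads behind each value is unknown, and differences are described by their size alone.

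Autophagy delivers cytoplasm and organelles to the lysosome. The ULK1 kinase complex starts it, the PIK3C3 lipid kinase complex marks the site, lipid transfer and scramblase proteins extend the membrane, and a ubiquitin-like conjugation system attaches proteins of the ATG8 family (the LC3 and GABARAP proteins) to it. Receptors bind cargo on one side and ATG8 proteins on the other. In neurons, autophagosomes form near axon tips and are carried back towards the cell body, which makes the pathway a frequent subject of work on injured axons.

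Of the 37 listed genes, 27 were lower and 10 higher in SCI than in No-SCI, that is 73.0% lower against 56.4% of all genes in the table. Their log2 ratios, SCI over No-SCI, had a median of -0.42, against -0.12 for all genes, or -0.31 relative to that median. The middle of the list ran from -0.79 to 0.01 between its quartiles, whereas that of all genes ran from -0.61 to 0.37. At the smallest fold that the study accepts, 1.3, 21 of the 37 were lower and 2 were higher. The study also sets a limit on the false discovery rate, the expected share of false calls, which is not applied here. The remaining 14 lay within 1.3-fold, as did 39.6% of all genes. Among all genes, 35.7% were at least 1.3-fold lower and 24.6% at least 1.3-fold higher, so the genes sat on the lower side more often than the table did, at 56.8% and 5.41%. When the median of all genes was centred at 0, these counts were 17 lower and 5 higher, beside 30.3% and 30.1% of the table.

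Large differences were not more frequent than elsewhere. At least 2-fold lower were 4 of the 37 genes (10.8%), NBR1, ATG12, ATG9A and AMBRA1, beside a background of 12.1%, and 0 were at least 2-fold higher, beside 7.93%. The count of 4 rests on values close to the limit. ATG12, ATG9A and AMBRA1 had log2 ratios of -1.05, -1.01 and -1.01, and PIK3C3, TAX1BP1 and FUNDC1 lay just outside with -0.96, -0.92 and -0.90. With the median of all genes centred at 0, NBR1 alone remained past 2-fold, beside 9.59% of all genes lower and 9.53% higher.

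**Figure D1:**
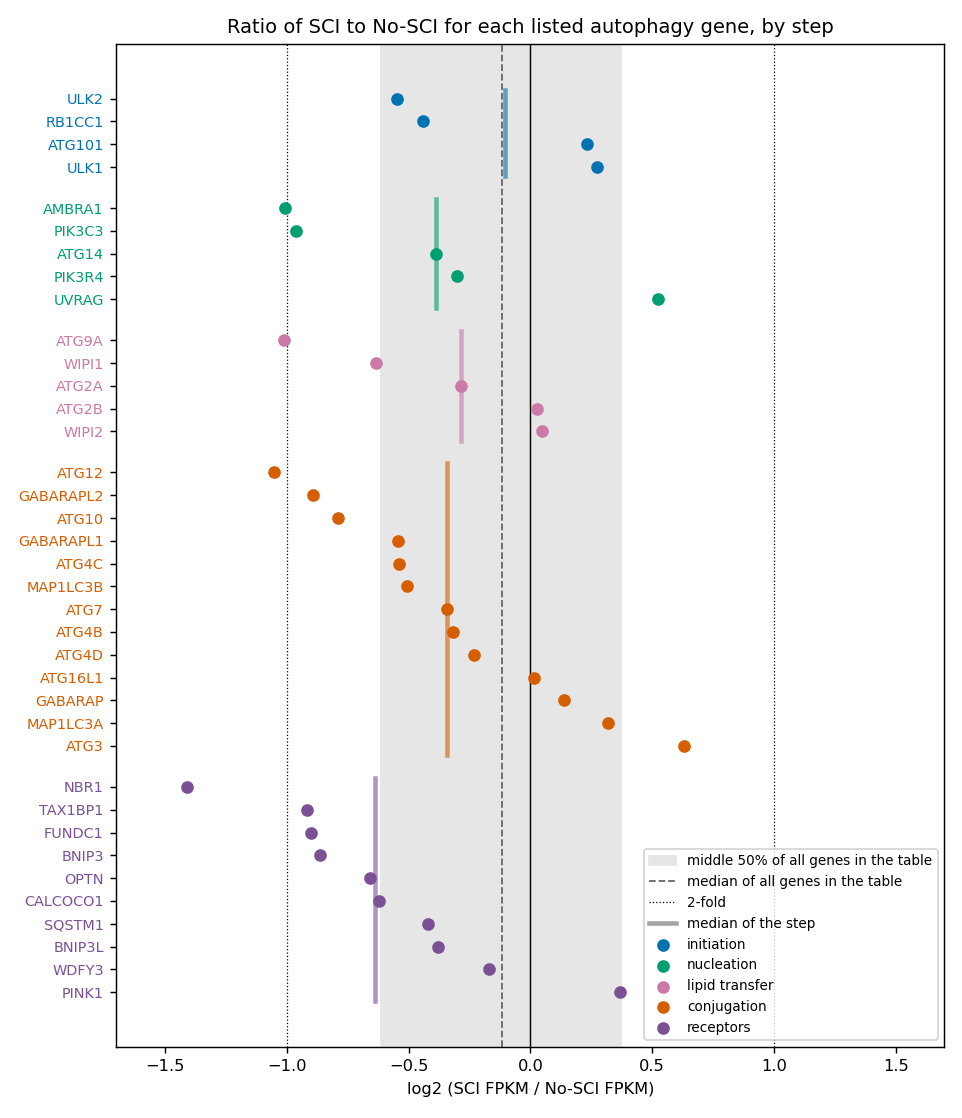
Log2 ratio of FPKM, SCI over No-SCI (horizontal axis), for each of the 37 listed autophagy genes (points), grouped and coloured by step, with the median of each step as a bar, the median of all genes as a dashed line and the middle 50% of all genes shaded. NBR1 lies farthest to the left at -1.41 and ATG3 farthest to the right at 0.63. In the receptor step, 9 of the 10 genes lie left of 0, beside 56.4% of all genes.

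Because many autophagy and lysosome genes carry an E-box called the CLEAR element, the sites of the transcription factors TFEB and TFE3, promoters were searched for its core. RefSeq promoter sequences of the GRCr8 rat assembly were found for 36 of the 42 genes, and the 250 bases before the start site were read. CACGTG, which reads the same on both strands, was present in the promoters of 5 genes, ATG3, ATG5, BNIP3, EPG5 and PINK1, and in 5.59% of all 33469 promoters of this length. Its longer form TCACGTGA, which contains it, was in those of ATG3 and EPG5 and in 0.657% of all promoters. TGTTTAC, a site of FOXO factors searched on both strands, was in none of the 36 and in 3.21% of all promoters. Shown here are the promoters of the genes with the highest and the lowest ratio, ATG3 and NBR1, and of the mitophagy genes PINK1 and BNIP3, which differed in opposite directions. CACGTG is in capitals, and each sequence runs 5′ to 3′ on the strand of its gene.
ATG3, chr11:69159281-69159530, minus strand: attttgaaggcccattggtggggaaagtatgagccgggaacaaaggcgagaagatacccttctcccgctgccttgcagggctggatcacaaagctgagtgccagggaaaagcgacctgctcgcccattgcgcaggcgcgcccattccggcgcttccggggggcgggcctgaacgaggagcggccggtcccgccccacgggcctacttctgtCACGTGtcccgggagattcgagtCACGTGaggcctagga
PINK1, chr5:155825951-155826200, minus strand: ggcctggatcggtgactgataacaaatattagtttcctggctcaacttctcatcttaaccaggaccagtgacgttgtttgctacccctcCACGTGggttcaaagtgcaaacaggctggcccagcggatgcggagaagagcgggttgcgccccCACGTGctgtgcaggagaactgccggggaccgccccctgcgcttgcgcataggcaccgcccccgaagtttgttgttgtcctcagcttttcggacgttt
BNIP3, chr1:203154963-203155212, minus strand: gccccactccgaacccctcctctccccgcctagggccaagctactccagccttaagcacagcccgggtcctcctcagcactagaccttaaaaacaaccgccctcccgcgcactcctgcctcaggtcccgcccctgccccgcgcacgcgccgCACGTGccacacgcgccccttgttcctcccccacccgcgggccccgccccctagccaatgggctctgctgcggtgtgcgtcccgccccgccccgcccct
NBR1, chr10:86978299-86978548, plus strand: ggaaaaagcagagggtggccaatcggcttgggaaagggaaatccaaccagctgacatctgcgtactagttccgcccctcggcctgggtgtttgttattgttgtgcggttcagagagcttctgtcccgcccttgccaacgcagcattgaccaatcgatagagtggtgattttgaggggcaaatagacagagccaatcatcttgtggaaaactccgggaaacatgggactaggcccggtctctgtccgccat
ATG3 and PINK1 hold the core 2 times, BNIP3 holds it 1 time, and these letters do not occur in the window of NBR1. Of the 3 listed genes with the core, ATG3 and PINK1 were higher after SCI, PINK1 by less than 1.3-fold, and BNIP3 was lower. The other listed genes with a promoter sequence lacked the core, higher and lower ones alike. These matches describe the letters alone and are no evidence of binding.

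The initiation genes were divided in direction. Of the 4 listed, 2 were at least 1.3-fold lower and 0 at least 1.3-fold higher, beside 35.7% and 24.6% of all genes. ULK1, the kinase that receives signals from AMPK and mTORC1, had 4.36 FPKM in No-SCI and 5.27 FPKM in SCI, a log2 ratio of 0.27. ULK2, its close relative, went the other way, from 22.2 FPKM to 15.2 FPKM (-0.55). ULK2 was therefore 5.10 times as abundant as ULK1 in No-SCI and 2.88 times in SCI, a comparison within each group that no scaling of the groups can alter. RB1CC1 (FIP200), the large scaffold of the complex, had 11.7 FPKM and 8.63 FPKM (-0.44). ATG101, which stabilises ATG13 within the complex, was the most abundant gene of this step, with 113 FPKM and 132 FPKM (0.23). With 2 genes on each side, the median of the step, -0.10, was about that of all genes. It turned to 0.013 when the median of all genes was centred at 0.

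Of the 5 listed nucleation genes, 4 were lower, beside 56.4% of all genes. PIK3C3 (VPS34), the kinase that makes phosphatidylinositol 3-phosphate on the forming membrane, had 9.32 FPKM in No-SCI and 4.79 FPKM in SCI, a log2 ratio of -0.96. PIK3R4 (VPS15), its regulatory subunit, had 4.53 FPKM and 3.68 FPKM (-0.30). AMBRA1, a Beclin 1 partner that is also part of a ubiquitin ligase, had 17.6 FPKM and 8.76 FPKM (-1.01). The complex exists in forms that share the kinase but differ in another subunit. ATG14, the subunit of the form that starts autophagosomes, had 6.91 FPKM and 5.28 FPKM (-0.39). UVRAG, the subunit of the form that works on endosomes and autophagosome maturation, had 30.2 FPKM and 43.4 FPKM (0.52). The ratio of UVRAG to ATG14 thus went from 4.37 in No-SCI to 8.21 in SCI. Apart from UVRAG and AMBRA1, the genes of this step were under 10 FPKM in both groups, and BECN1, which encodes the core subunit Beclin 1, was among the absent genes.

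The genes for membrane supply and lipid transfer spanned a wide range of levels. ATG9A, the scramblase that arrives on vesicles and is transported into axons, had 26.6 FPKM in No-SCI and 13.2 FPKM in SCI, a log2 ratio of -1.01. WIPI1, a reader of phosphatidylinositol 3-phosphate, had 153 FPKM and 98.8 FPKM (-0.63). Its relative WIPI2, which recruits ATG16L1, had 9.17 FPKM and 9.49 FPKM (0.05), so that the WIPI1 to WIPI2 ratio went from 16.7 to 10.4. The lipid transfer proteins ATG2A and ATG2B had the lowest values of all members. ATG2A was at 3.31 FPKM and 2.72 FPKM and ATG2B at 1.57 FPKM and 1.60 FPKM, close to 1, the lowest value in the table, where a ratio is least informative.

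**Figure D2:**
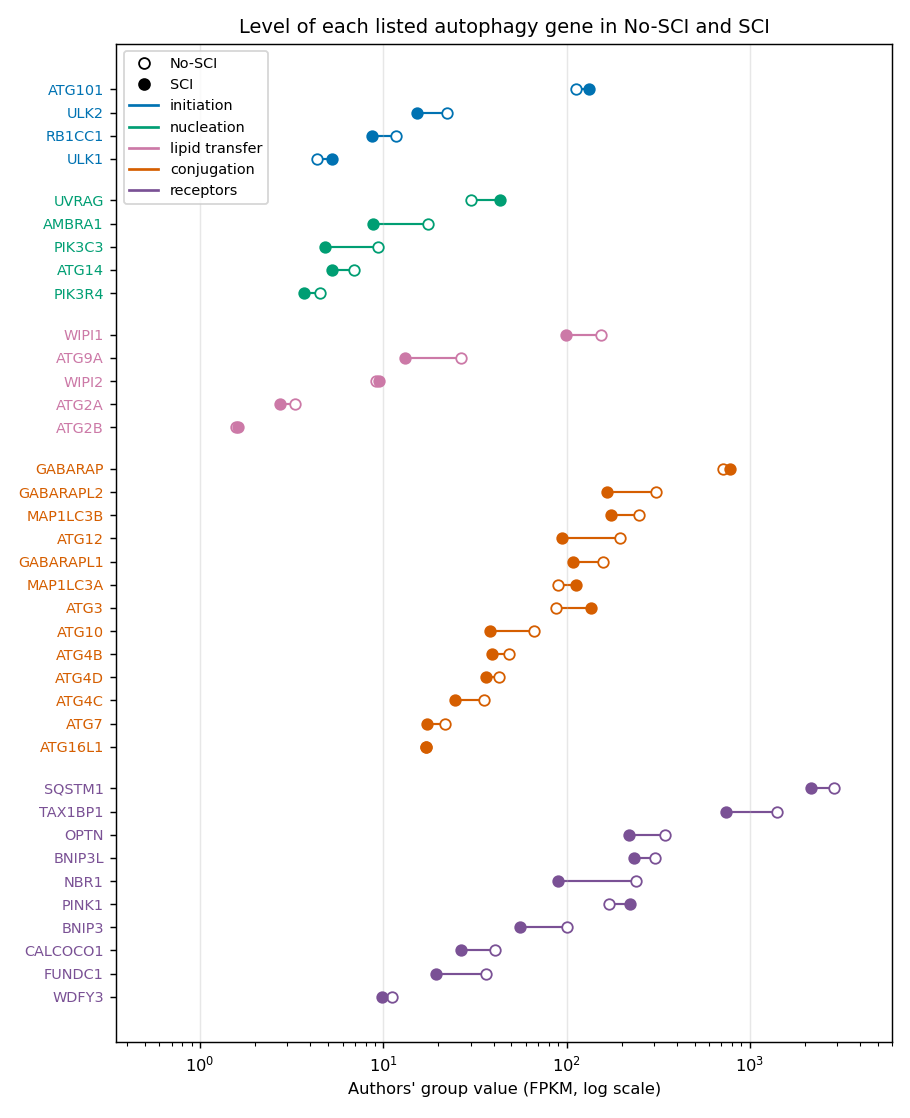
FPKM of each of the 37 listed autophagy genes in No-SCI (open points) and in SCI (filled points) on a log axis, sorted by the No-SCI value within each step. SQSTM1 and TAX1BP1 are the most abundant genes in No-SCI, and ATG2B is the lowest in both groups.

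Conjugation is the largest step, with 13 listed genes, of which 9 were lower and 4 higher, and a median log2 ratio of -0.34. The lower genes were 69.2% of the step, beside 56.4% of all genes. The ATG12 and ATG8 systems share ATG7, their E1-like enzyme, which had 21.8 FPKM in No-SCI and 17.2 FPKM in SCI (-0.34). They use separate E2-like enzymes, and these differed in opposite directions. ATG3, which charges ATG8 proteins, had 87.5 FPKM and 136 FPKM, a log2 ratio of 0.63 and the highest of the 37 genes. ATG10, which charges ATG12, had 66.0 FPKM and 38.2 FPKM (-0.79). The ATG10 to ATG3 ratio was 0.755 without and 0.282 with injury.

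ATG12, the ubiquitin-like protein that ATG10 hands to ATG5, had 196 FPKM in No-SCI and 94.6 FPKM in SCI, a log2 ratio of -1.05. ATG16L1, which joins the ATG12 and ATG5 conjugate and places it on the membrane, had 17.0 FPKM and 17.2 FPKM (0.01). The ratio of ATG12 to ATG16L1 was 11.5 and 5.51. The 3 listed ATG4 proteases trim ATG8 proteins before conjugation and release them afterwards. All were lower, as were 56.4% of all genes, but ATG4B and ATG4D by less than 1.3-fold. ATG4B, the protease with the broadest activity, had 48.7 FPKM and 39.1 FPKM (-0.32). ATG4C had 35.6 FPKM and 24.5 FPKM (-0.54), and ATG4D had 42.7 FPKM and 36.4 FPKM (-0.23).

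Among the 5 ATG8 genes, 2 were higher and 3 lower, beside 56.4% of all genes lower. GABARAP, the most abundant, had 710 FPKM in No-SCI and 780 FPKM in SCI, a log2 ratio of 0.14. GABARAPL2 (GATE-16) had 307 FPKM and 166 FPKM (-0.89), and GABARAPL1 had 158 FPKM and 108 FPKM (-0.55). The LC3 genes also parted. MAP1LC3B, the form most often used as a marker of autophagosomes, had 247 FPKM and 174 FPKM (-0.51), while MAP1LC3A had 89.9 FPKM and 112 FPKM (0.32). Summed over the family, the level was 1513 FPKM in No-SCI and 1340 FPKM in SCI. GABARAP made up 46.9% of that sum in No-SCI and 58.2% in SCI, while GABARAPL2 went from 20.3% to 12.4%. The ratio of GABARAP to GABARAPL2 was 2.31 and 4.71, and that of MAP1LC3B to MAP1LC3A 2.75 and 1.55. The sources used here do not state how reads shared with near-identical copies were counted, which limits the comparison of levels among such short and conserved genes.

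**Figure D3:**
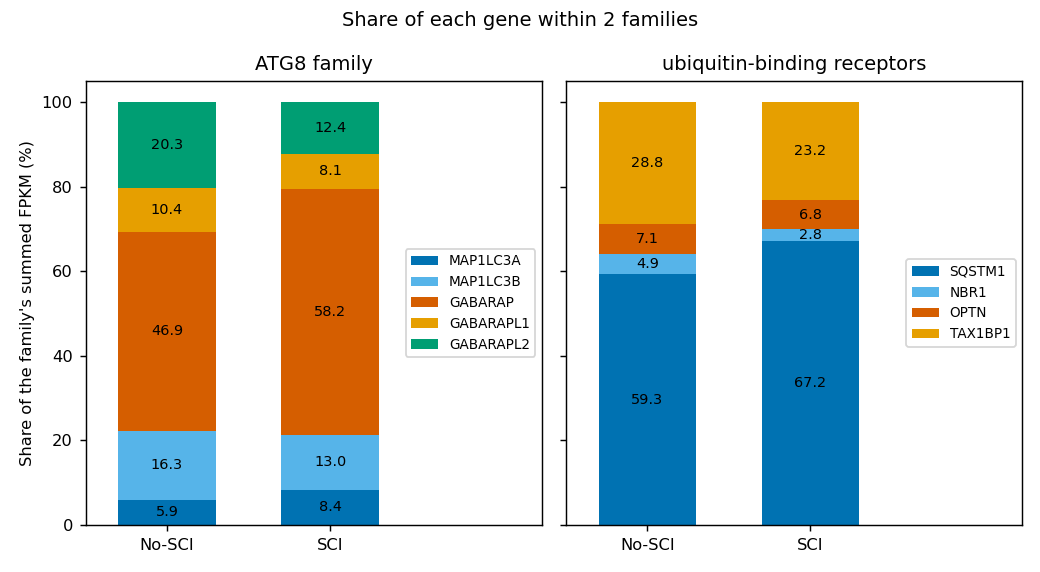
Share of each gene in the summed FPKM of the ATG8 family (left) and of 4 ubiquitin-binding receptors (right), in percent, for No-SCI and SCI. GABARAP takes 46.9% and 58.2% of the ATG8 sum, and SQSTM1 takes 59.3% and 67.2% of the receptor sum.

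The receptor step, which also holds the kinase PINK1 and the adaptor WDFY3, had a median log2 ratio of -0.64, or -0.52 relative to the median of all genes. As deposited, this was the lowest median of the steps. Nucleation was lower, at -0.67, beside -0.64 for the receptors, when genes with a mean under 5 FPKM or values of more than 6 digits were left out. Of the 10 listed, 9 were lower in SCI, 8 of them by at least 1.3-fold, and PINK1 was higher. Among all genes, 56.4% were lower and 35.7% at least 1.3-fold lower. Without the receptors, 18 of the remaining 27 genes were lower, nearer to that share, with a median of -0.34 beside -0.12 for all genes.

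Receptors of ubiquitinated cargo included the highest values of the 37 genes in No-SCI, those of SQSTM1 and TAX1BP1. SQSTM1 (p62), which gathers ubiquitinated proteins into condensates and is itself degraded by autophagy, had 2895 FPKM in No-SCI, at percentile 99.7 of all genes, and 2161 FPKM in SCI (-0.42). TAX1BP1 had 1405 FPKM and 745 FPKM (-0.92), at percentile 99.1 in No-SCI. OPTN, which binds ubiquitinated cargo such as damaged mitochondria and is mutated in forms of amyotrophic lateral sclerosis and glaucoma, had 345 FPKM and 218 FPKM (-0.66). NBR1, a partner of SQSTM1 in aggregates, had 239 FPKM and 90.0 FPKM, a log2 ratio of -1.41 and the lowest of the 37. All 4 were thus lower in SCI, beside 56.4% of all genes, but unequally. There were 5.87 units of TAX1BP1 for each unit of NBR1 in No-SCI and 8.27 in SCI, and 2.06 and 2.90 units of SQSTM1 for each of TAX1BP1. CALCOCO1, a receptor of endoplasmic reticulum and Golgi, had 40.7 FPKM and 26.4 FPKM (-0.62). WDFY3 (ALFY), a very large adaptor for protein aggregates, had 11.1 FPKM and 9.87 FPKM (-0.17).

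The mitophagy genes were divided between receptors in the outer mitochondrial membrane and the kinase PINK1. BNIP3, known as a target of hypoxia-inducible factors, had 101 FPKM in No-SCI and 55.6 FPKM in SCI, a log2 ratio of -0.86. BNIP3L (NIX), which clears mitochondria from maturing red cells, had 302 FPKM and 232 FPKM (-0.38), and FUNDC1 had 36.4 FPKM and 19.5 FPKM (-0.90). PINK1, which accumulates on damaged mitochondria, had 171 FPKM and 221 FPKM (0.37). This is 1.29-fold, just under the 1.3 that the study sets as its smallest fold, beside its limit on the false discovery rate. PINK1 was 1.69 times as abundant as BNIP3 in No-SCI and 3.98 times in SCI, and against FUNDC1 it was 4.71 and 11.4 times.

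A second list of 82 genes around this machinery, of which 81 had a row, had a median log2 ratio of -0.30, or -0.18 relative to all genes. Of these, 56 genes were lower (69.1%, beside 56.4% of all genes) and 25 higher. At least 2-fold lower were 12 (14.8%), near the 12.1% of all genes, and at least 2-fold higher were 3 (3.70%, beside 7.93%). Upstream, the 29 genes of the mTORC1, AMPK and Rag GTPase modules were nearly evenly divided, 15 lower and 14 higher, with a median of -0.18. TSC1 and TSC2, which together restrain mTORC1, were among the lower ones. TSC1 had 20.9 FPKM in No-SCI and 6.27 FPKM in SCI (-1.74), and TSC2 had 116 FPKM and 55.7 FPKM (-1.06). The other genes of these modules at least 2-fold lower were the Rag GTPase gene RRAGB (-1.25) and DDIT4 (-1.22), a stress-induced inhibitor of mTORC1. STK11 (LKB1), the kinase that activates AMPK, was 3.03-fold higher, with 15.9 FPKM and 48.1 FPKM.

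The 7 transcription factor genes had a median of -0.03. TFE3, which binds the CLEAR element, had 87.9 FPKM in No-SCI and 42.3 FPKM in SCI (-1.05), and FOXO3 had 25.1 FPKM and 59.6 FPKM (1.24). Of 15 further core genes, 12 were lower, beside 56.4% of all genes. TECPR1, which links the ATG12 conjugate to lysosomes, had the lowest ratio of the whole second list, with 39.7 FPKM and 10.8 FPKM (-1.88). RUBCN (Rubicon), which holds back the UVRAG form of the PIK3C3 complex, had 22.8 FPKM and 7.83 FPKM (-1.54), TECPR2 had a log2 ratio of -1.67 and BCL2, which binds Beclin 1, one of -1.10. The 15 further receptors, of which 12 were lower, included TOLLIP at 90.8 FPKM and 38.2 FPKM (-1.25). Among the 15 genes for fusion with the lysosome, 13 were lower, with a median of -0.31. PLEKHM1 (-1.19) and the HOPS tether subunit gene VPS11 (-1.08) were at least 2-fold lower, while VAMP8, the SNARE on the lysosome side, was 2.10-fold higher at 48.3 FPKM and 102 FPKM.

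Markers of 5 of the 7 cell types had medians farther from 0 than the autophagy genes. The 18 listed oligodendrocyte markers had a median log2 ratio of -1.23, the 10 astrocyte markers -1.36 and the 15 neuron and axon markers -0.85. Their sums went from 90501 to 49136 FPKM, from 14212 to 9019 FPKM and from 6398 to 3939 FPKM. Each sum rests mostly on a few genes. MOBP and BCAS1 had 44200 and 36069 FPKM in No-SCI. Of the astrocyte markers, NDRG2 went from 8001 to 3228 FPKM, while GLUL hardly differed (5858 and 5624 FPKM). Of the neuron and axon markers, MAPT and MAP2 had 2223 and 2140 FPKM in No-SCI and were lower in SCI. GAP43, with 1275 FPKM, was higher in SCI, with 1406 FPKM. MBP, GFAP, AQP4, SLC1A3, S100B, ALDOC, NEFM and SNAP25, defining markers of these cells, had no row, whereas MOBP had 44200 FPKM in No-SCI and MAPT 2223 FPKM. The 11 meningeal fibroblast markers were all higher, with a median of 2.56 and sums of 76.1 and 934 FPKM. The 10 skeletal muscle markers were all lower, with a median of -2.73 and sums of 433 and 47.0 FPKM. MYH1 and MYH2 among them had identical values (2.71 and 1.18 FPKM) and may not be separate estimates. Microglia and macrophage markers (15 listed, median 0.30, sums of 1474 and 2067 FPKM) and endothelial markers (8 listed, median -0.02, sums of 57.0 and 74.4 FPKM) were split in direction. Fewer cells or processes of a type and less RNA in each cannot be told apart in such bulk samples. With 1 SCI library in the labels, injury cannot be told apart from a difference in the tissue collected, such as its share of muscle or meninges. The part of these differences in the values of the autophagy genes was not tested.

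**Figure D4:**
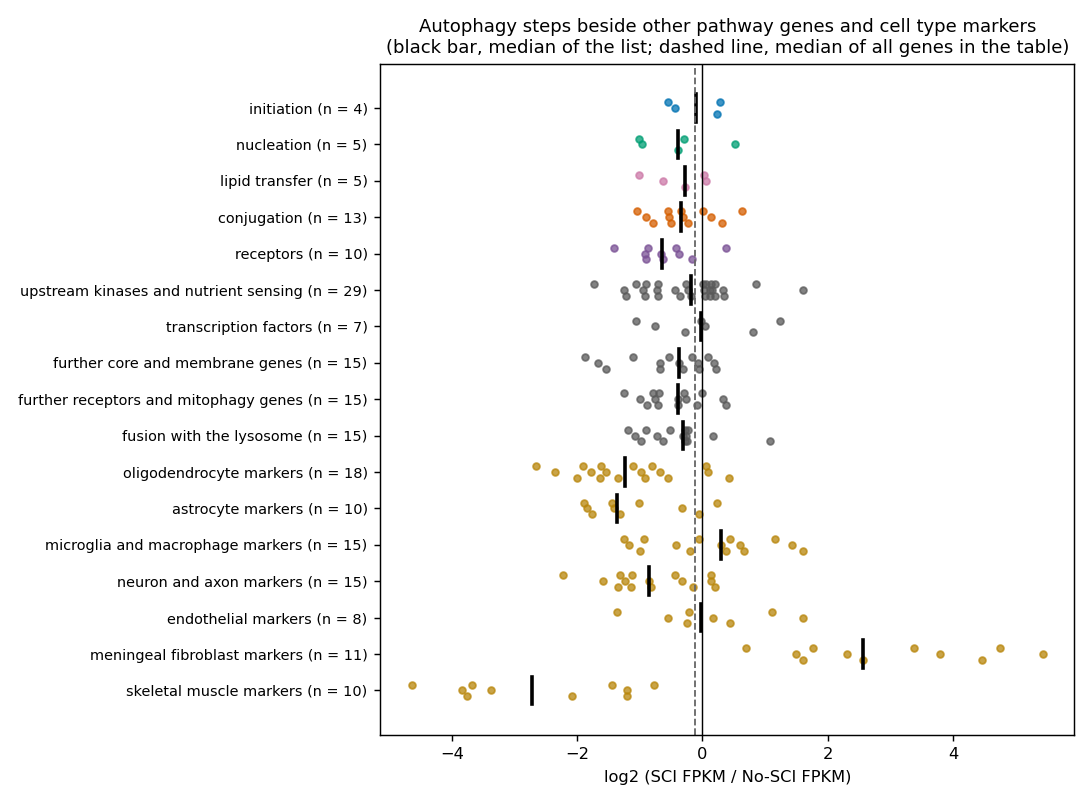
Log2 ratio of SCI to No-SCI for the genes (points) of each autophagy step, of 5 groups of other pathway genes and of 7 cell type marker lists, with the median of each list as a black bar and the median of all genes as a dashed line. The medians of the autophagy lists lie between -0.64 and -0.03, and those of the marker lists between -2.73 and 2.56.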

How the data were processed

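RNA from spinal cord supernatant of No-SCI (2 libraries in the labels) and SCI (1 library) rats was freed of ribosomal RNA before stranded libraries were made. The authors brought all libraries down to the lowest read number, aligned the reads to rn6 with STAR 2.5.4b and estimated FPKM with Cuffdiff 1.3.0 (versions from the submitters' processing notes) and upper quartile normalization. The authors deposited 1 FPKM value per group for 12771 entries. Where a symbol occurred 2 times (13 symbols), the more abundant entry was kept. All measurement columns had a group (0 without). The deposited p-value, q-value, significance and fold change columns hold the authors' comparison and were not used.

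The log2 ratio was log2(SCI/No-SCI) without a pseudocount, and a gene was counted at a fold of at least 2 or, as the study's minimum, 1.3. No filter on low values was applied to the deposited values. The lowest value was 1 in both groups, held by 18 genes in No-SCI and 37 in SCI. Whether 1 had been added to the values or lower ones had been cut off is not known here. No test was possible, since the spread between animals and the read counts per gene are unknown. The genes, steps, other lists and markers were chosen with earlier results of these data known. ATG2A, ATG2B, ATG9A, WIPI1 and WIPI2 were set apart as a step of their own. Every member was named, and other pathway genes at a fold of at least 2 and a mean of at least 5 FPKM. Of the markers, only some abundant genes, some absent ones and a pair with identical values were named. Alternatives were a pseudocount of 1, subtraction of 1, 3 scalings, a mean of at least 5 FPKM, other folds, means, and leaving out values of more than 6 digits. Some genes are not reported here. Promoters came from RefSeq (GRCr8). The ratio step was tested on simulated data. Python 3.11.15, numpy 2.4.6, pandas 2.3.3 and matplotlib 3.10.9 were used.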

Additional observations from a re-analysis of the deposited data

How the results depend on the processing

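The direction of each of the 37 genes was kept under the 6 alternatives run on single genes (a pseudocount of 1, subtracting 1, centring the median of all genes at 0, scaling to the same upper quartile, scaling to the same total and a mean of at least 5 FPKM, which left 33 genes), and no ratio moved by more than 0.17 on the log2 scale. The median of all members was -0.42 as deposited, -0.31 centred and -0.32 with the same upper quartile. In that order of settings, centred and upper quartile, the medians were 0.013 and -0.00048 for initiation, -0.27 and -0.28 for nucleation, -0.17 and -0.18 for lipid transfer, -0.22 and -0.24 for conjugation, and -0.52 and -0.54 for receptors. The sign of the initiation median is therefore undetermined, and centring adds 0.12 to every ratio by construction. Subtracting 1 moved the lipid transfer median to -0.43. With a mean of at least 5 FPKM, the medians were -0.44 for initiation (3 genes left), -0.67 for nucleation (4), below the -0.64 of the receptors (10), and -0.63 for lipid transfer (3).

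Values of more than 6 digits may be sums over entries, and they occur in 24 of the 37 genes. Without these, the medians were 0.27 for initiation (1 gene left), -0.67 for nucleation (2), 0.049 for lipid transfer (1), -0.55 for conjugation (5) and -0.64 for receptors (4). Means in place of medians moved no step by 0.1. The count of genes at least 2-fold lower went from 4 (12.1% of all genes) to 2 with a pseudocount of 1 (9.53%) and with the same total (11.1%). It was 1 when centred (9.59%) or with the same upper quartile (9.87%), and 5 when 1 was subtracted (16.2%). At a fold of 1.5 it was 13 lower and 1 higher (26.3% and 16.9% of the table), and at 1.3 it was 21 and 2 (35.7% and 24.6%). For the counts at least 1.3-fold higher and at least 1.3-fold lower, the alternatives were added after the data were seen. The count at least 1.3-fold higher was 5 when centred and 4 with the same upper quartile. The shares of all genes there were 30.1% and 29.5%. The count at least 1.3-fold lower lay between 17 and 23, beside 30.3% to 38.1% of all genes. No replicate could be left out, and no paired analysis was possible because the table has 1 value per group.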

Other observations

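Across levels, the autophagy genes had a lower median ratio than the table in each band of the No-SCI value, by description and without a test. Of 7 genes from 1 to 10 FPKM, 4 were lower, near the 50.5% of the 4699 genes of that band. Their median log2 ratio was -0.28, beside -0.01. Of 16 genes from 10 to 100 FPKM, 12 were lower, beside 60.9% of 6136 genes, with medians of -0.39 and -0.19. Of 14 genes at 100 FPKM or more, 11 were lower, beside 56.2% of 1923 genes, with medians of -0.59 and -0.09. That last band holds 7 of the 10 receptor genes and 5 of the 13 conjugation genes, so level and step are not separate in this list.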
